A study of Mus musculus with 11 samples.

Results

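Voltage-gated sodium and calcium channel genes are described here across the mouse hippocampus after a cortical stroke. They are the 35 genes, of 22377 in the table, whose symbol begins with Scn and a digit or with Cacn. The genes were chosen by name and not by a measured value, but the choice singled out Cacna1d with its difference between 7 d and 1 m already known. The 16 pore-forming members are 7 sodium channel alpha subunits and 9 calcium channel alpha1 subunits. The 19 auxiliary members are 4 sodium channel beta, 4 calcium channel alpha2delta, 4 calcium channel beta and 7 gamma subunits. Scn4a, Scn10a, Scn11a, Cacna1f and Cacng1 were not analysed here.

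RNA of the whole hippocampus of male C57BL/6N mice was read by CAGE, cap analysis of gene expression, a method that counts transcripts by reads from their capped 5′ ends. The mice were 8 to 10 or 65 to 85 weeks old, and the labels do not say which age went into which library. Photothrombosis (PT), a model of ischaemic stroke, was made with rose bengal (35 mg/kg, intraperitoneal), a dye that clots vessels when lit. LED light of 565 nm and 200 mW was shone for 30 min on a circle of 3.5 mm over the left parietal lobe. The stroke was therefore in the cortex, and the hippocampus of that side is called the infarcted side. Of the 11 libraries, 1 came from untreated (naive) mice, with no side given, and 10 from PT mice, 1 for each side in 5 conditions. These conditions were 7 d after PT, 7 d with levetiracetam (LEV), 1 m after PT, 1 m with LEV, and 2 m after PT with LEV withdrawn. LEV is an anti-seizure drug that binds the vesicle protein SV2A, and it was given at 5 mg/mL in the drinking water. The series text gives the drug for 2 weeks from 1 month after PT, with a withdrawal of 1 week, while the library titles of the withdrawn mice name 2 weeks. This schedule does not settle when the drug was given to the 7 d or the 1 m mice. How many mice made a library and whether both sides came from the same mice is not stated in the labels. With 1 library per condition and side, no p-value measures the spread between mice of a group. For side, p-values rest on the spread of the side difference between conditions. For time and LEV both sides were averaged first, which leaves 4 condition means and 1 residual degree of freedom. Most of the spread used there in limma (21.6 prior degrees of freedom) is borrowed from all genes tested.

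Voltage-gated sodium channels open on depolarisation and carry the upstroke of the action potential. Their large alpha subunit forms the pore, while beta subunits adjust gating, adhesion and delivery to the membrane. Calcium channels of the Cav1 (L), Cav2 (P/Q, N and R) and Cav3 (T) types are formed by an alpha1 subunit. Alpha2delta and beta subunits bring Cav1 and Cav2 channels to the membrane and tune their gating. In hippocampal neurons Cav2 channels trigger transmitter release, L-type channels couple activity to transcription, and several gamma subunits are known mainly as regulators of AMPA-type glutamate receptors (TARPs).

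Library totals were between 13382623 and 22377376 reads, and 93.0% to 96.1% of them lay in the listed genes. Values are CPM, counts scaled to the library total, and differences are on the log2(CPM + 1) scale, which understates the change of low genes. The tissue carried neuronal markers at a summed 4081 to 5274 CPM, and all 4 CA1 and all 4 dentate granule cell markers were present in every library. In bulk tissue, fewer cells of a type and less RNA per cell cannot be told apart. Summed choroid plexus markers were 3129 to 4780 CPM at 7 d and 53.2 to 1771 at 1 m, with the PT 1 m infarcted library (53.2) and the PT 1 m LEV non-infarcted library (102) at the bottom.

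Reads were found for 34 of the 35 members in every library. A mean of at least 1 CPM over the libraries, the filter for testing, was reached by 33 members, 15 pore-forming and 18 auxiliary. Cacng6, a gamma subunit outside the TARP group, stayed at 0.297 to 1.45 CPM (5 to 24 reads). Cacna1s, the L-type pore of skeletal muscle, ran from 0 to 0.857 CPM, or 15 reads. Its value of 0 in the PT 1 m non-infarcted library allows up to 3 reads, or 0.215 CPM. Both were counted but not tested.

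Among the sodium channel pores, Scn8a (Nav1.6, the main channel of the axon initial segment and nodes in adult neurons) was highest, at 128 to 174 CPM with a mean of 160. Scn2a (Nav1.2, of excitatory axons and dendrites) followed with a mean of 82.6 CPM and Scn1a (Nav1.1, prominent in inhibitory interneurons) with 80.2. Over the 10 PT libraries Scn2a was at 84.1 ± 17.3 CPM (SD, n = 10) and Scn1a at 81.6 ± 17.02 (SD, n = 10). These SDs also hold the differences between conditions, and the order of these neighbours was not tested. Scn3a (Nav1.3, best known from the developing brain) had a mean of 20.2 CPM. Low means were those of Scn9a (Nav1.7, a channel of sensory neurons), 4.10 CPM with a range of 3.21 to 5.05, and Scn7a (Nax, a sodium sensor), 3.56 CPM with a range of 2.77 to 4.51.

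Of the sodium channel beta subunits, Scn3b, which modulates inactivation of the pore, had a mean of 139 CPM and Scn2b, which is linked to alpha subunits by a disulphide bond, 108. Scn4b, known for a part in resurgent current, was near 11.7 CPM and ran from 9.07 to 14.0.

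The calcium channel pores were led by Cacna1e (Cav2.3, the R-type channel), at 157 to 242 CPM. Cacna1a (Cav2.1, the P/Q-type channel of fast release) had a mean of 103 CPM, Cacna1c (Cav1.2, the main neuronal L-type channel) 75.02 and Cacna1b (Cav2.2, the N-type channel of release sites) 73.2. The T-type pores Cacna1h, Cacna1i and Cacna1g, which open near rest and support bursts, had means of 40.2, 31.3 and 19.2 CPM. Cacna1d (Cav1.3, an L-type channel that opens at more negative potentials than Cav1.2) had a mean of 32.8 CPM and the widest range of the 33 tested members, 14.9 to 73.6 CPM. This highest-to-lowest ratio of 4.94 ranked 108th of the 12579 genes with a mean of at least 5 CPM, whose median ratio was 1.56. The median of the 29 members above that level was 1.501. Cacna1d was singled out for its difference between 7 d and 1 m, so its range and rank are a description of that choice. Its highest value was that of the naive library, and its highest PT value was 53.3 CPM.

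Cacna2d3 (mean 112 CPM) and Cacna2d1 (92.3 CPM), the latter a target of gabapentin, led the alpha2delta subunits, while Cacna2d2 was at 10.2 and Cacna2d4 at 1.25. The calcium channel beta subunits, cytoplasmic partners of the pore, lay close together, with means of 114 CPM for Cacnb1, 107 for Cacnb2, 85.4 for Cacnb3 and 73.1 for Cacnb4. Among the gamma subunits Cacng8 (TARP gamma-8, enriched in the hippocampus) was highest at 101 CPM. Cacng7 (50.2 CPM), Cacng2 (stargazin, 47.8 CPM), Cacng3 (28.0 CPM), Cacng4 (13.4 CPM) and Cacng5 (9.63 CPM) followed in that order.

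**Figure D1:**
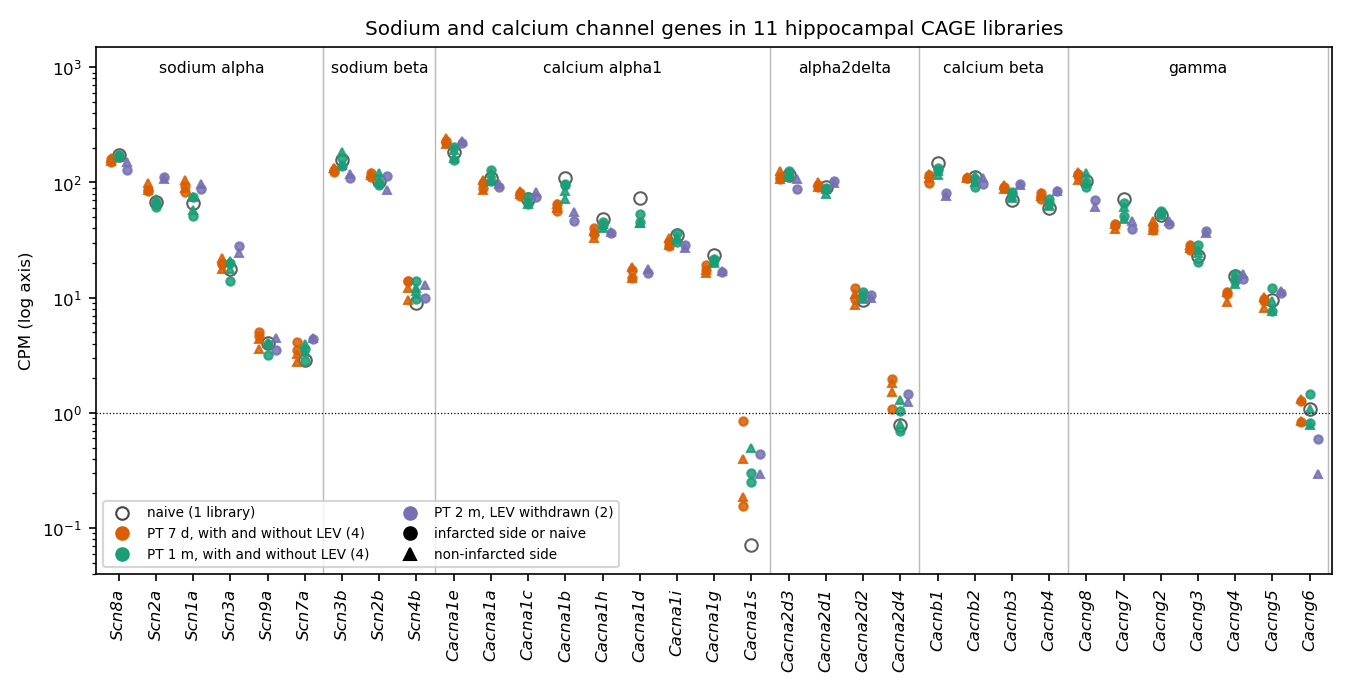
CPM of 33 of the genes in each of the 11 libraries on a log axis, grouped by subunit class and ordered by mean within a class; open circles are naive, colours are the times after PT, and circles and triangles are the infarcted and non-infarcted sides. The dotted line marks 1 CPM, the filter for testing, and the 0 of Cacna1s in the PT 1 m non-infarcted library cannot be drawn; Cacna1d shows the widest spread of the tested genes.

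A CAGE read marks a transcript start, so CPM needs no length correction, but levels between genes were also set per kb of exon. On that scale Cacng8 moved from the 10th to the 2nd place and Cacna1e from the 2nd to the 14th. The 16 pore-forming genes together gave 898.5 to 990.5 CPM per library and the 19 auxiliary genes 1331 to 1610. The pore-forming share of the summed CPM was 36.1% to 41.1% (median 39.2%), and per kb, where the long pore transcripts count for less, 12.4% to 14.8%. Both lowest shares came from the 1 m LEV libraries and both highest from the 2 m libraries.

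**Figure D2:**
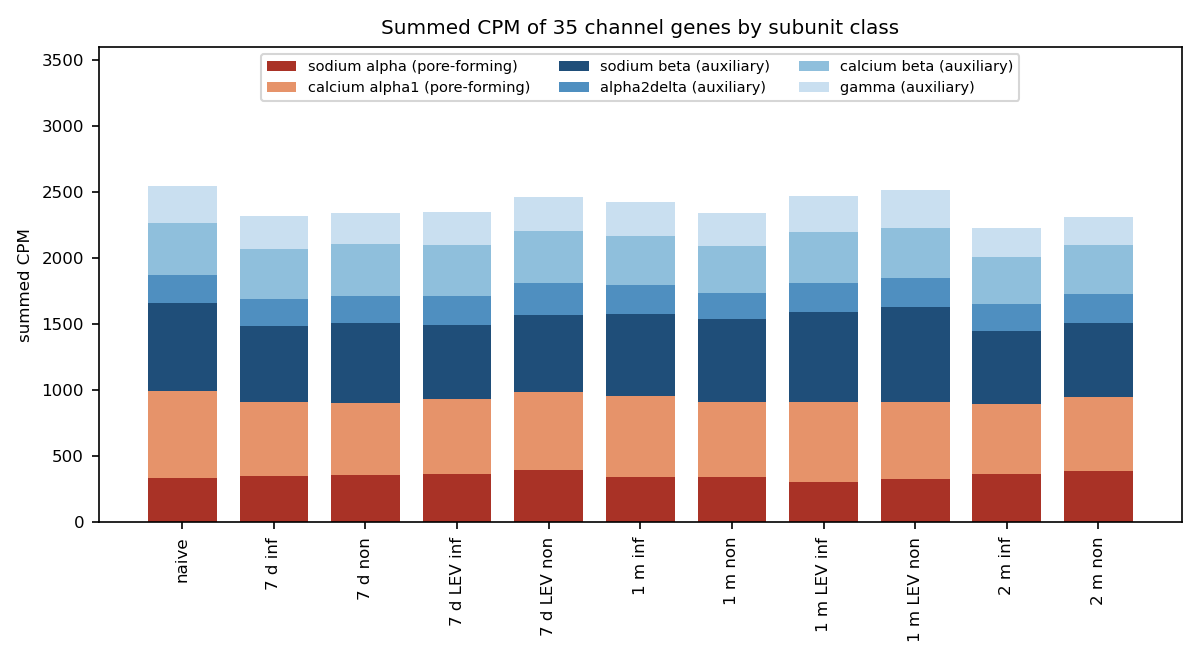
Summed CPM of the 35 genes in each library, stacked by class with the 2 pore-forming classes at the bottom; each bar is 1 library. Pore-forming genes sum to between 898.5 and 990.5 CPM in every library, and the total of all members runs from 2229 to 2546 CPM.

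Transcript starts are what CAGE reads, and RefSeq (GRCm38.p6) gave 37 start sites for 26 of the 35 members, 9 of them with more than 1. The 250 bases before the starts of members whose CPM changed with time are shown where they hold no exon. Capitals mark matches on either strand to the GC box GGGCGG, the TATA box TATAAA and the CCAAT box (CCAAT), with overlapping matches counted separately.
Cacna1d, chr14:30353487-30353736, minus strand: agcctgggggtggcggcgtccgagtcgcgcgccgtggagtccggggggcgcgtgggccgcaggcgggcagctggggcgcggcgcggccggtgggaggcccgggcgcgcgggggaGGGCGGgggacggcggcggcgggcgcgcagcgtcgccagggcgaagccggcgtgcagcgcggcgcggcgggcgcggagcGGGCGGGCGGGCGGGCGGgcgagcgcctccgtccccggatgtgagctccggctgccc
Cacna1b, chr2:24763153-24763402, minus strand: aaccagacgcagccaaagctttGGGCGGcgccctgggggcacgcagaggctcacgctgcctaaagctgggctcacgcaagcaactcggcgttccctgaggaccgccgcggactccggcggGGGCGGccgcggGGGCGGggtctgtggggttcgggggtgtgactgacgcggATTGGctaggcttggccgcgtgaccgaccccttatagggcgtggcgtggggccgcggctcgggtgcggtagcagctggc
Scn2a, chr2:65620519-65620768, plus strand: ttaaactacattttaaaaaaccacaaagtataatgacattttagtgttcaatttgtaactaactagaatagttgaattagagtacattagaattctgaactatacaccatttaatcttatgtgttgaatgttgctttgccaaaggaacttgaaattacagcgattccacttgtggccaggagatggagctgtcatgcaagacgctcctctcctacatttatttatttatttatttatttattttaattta
Scn2a, chr2:65668436-65668685, plus strand: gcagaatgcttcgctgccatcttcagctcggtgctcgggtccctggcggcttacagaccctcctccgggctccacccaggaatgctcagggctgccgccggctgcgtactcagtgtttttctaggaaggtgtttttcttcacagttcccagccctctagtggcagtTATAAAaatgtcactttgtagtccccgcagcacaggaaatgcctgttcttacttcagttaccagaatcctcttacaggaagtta
Cacng7, chr7:3332575-3332824, plus strand: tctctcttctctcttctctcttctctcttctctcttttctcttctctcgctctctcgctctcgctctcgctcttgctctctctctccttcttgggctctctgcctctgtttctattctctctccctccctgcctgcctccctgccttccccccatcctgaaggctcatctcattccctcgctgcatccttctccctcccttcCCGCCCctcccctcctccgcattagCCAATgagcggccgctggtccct

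The Cacna1d stretch lies inside the gene (chr14:30039939-30491455), before an internal start. It was 86.4% G or C, with 50 CpG and 5 GC boxes. The 250 bases before the other RefSeq start of Cacna1d are wholly annotated exon and are not shown. They were 39.6% G or C, with 2 CpG, 0 GC boxes, 3 TATA boxes and 1 CCAAT box, and are included in the counts below. Cacna1b (chr2:24603887-24763152) began right after a stretch of 72.0% G or C with 3 GC boxes and 1 CCAAT box. Scn2a (chr2:65620771-65767447) had a stretch of 29.6% G or C with none of the 3 motifs at its outer start and 1 TATA box at an inner start. The stretch before Cacng7 (chr7:3332955-3368221) was 58.0% G or C, with 1 GC box and 1 CCAAT box. The stretches before the RefSeq starts of Cacng2 and Scn1a hold exon and are not shown. Over the 37 member starts the median was 56.8% G or C, against 52.4% for all 32851 starts. A GC box was found before 14 member starts (37.8%, against 32.7% of all starts), a TATA box before 2 (5.41%, against 12.4%) and a CCAAT box before 9 (24.3%, against 33.8%). The activity-linked cyclic AMP element TGACGTCA was found before 0 (1.55% of all starts) and the E-box CACGTG before 0 (6.02%). These matches describe letters in a window, and the table gives 1 value per gene, so the start each read came from is not known.

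The first question is whether channel transcripts differed between 7 d and 1 m after PT. The L-type pore Cacna1d was 2.85 times as high at 1 m. The N-type pore Cacna1b and the gamma subunits Cacng2, Cacng4 and Cacng7 rose by less, and the sodium channel pores Scn1a and Scn2a fell. Limma on 4 condition means, with both sides averaged first, called 7 of 33 members at an adjusted p under 0.05, 5 higher and 2 lower. Cacna1d was singled out for this very difference, and without it 6 of 32 were called, 4 higher and 2 lower. Over all 16057 genes tested 15.8% were called, 5.71% higher and 10.1% lower. The share of members called lies near this background and is no result about the members as a group. The median difference was -0.04 over members and -0.06 over all genes, and 22 of 33 members had the same sign in all 4 pairs of libraries against 46.6% of all genes. Without Cacna1d the median over members was -0.05, and 21 of 32 had the same sign.

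Cacna1d was at 15.0 and 14.9 CPM at 7 d (infarcted, then non-infarcted side, as in all pairs of values here), and at 17.4 and 18.5 at 7 d with LEV. It stood at 53.3 and 44.3 CPM at 1 m and at 45.3 and 44.2 at 1 m with LEV. All 4 libraries of 1 m lay above all 4 of 7 d, with or without LEV and on either side. The means were 46.8 ± 4.38 CPM (SD, n = 4) at 1 m and 16.4 ± 1.79 (SD, n = 4) at 7 d, a ratio of 2.85. On the log2 scale the difference was 1.46 (SE 0.13) in limma, given as a description because Cacna1d was picked for it. Its size stayed within 1.27 and 1.58 under 17 alternative fits, and it was 1.40 without both 1 m libraries low in choroid plexus genes, a setting chosen after the data were seen. The naive library, at 73.6 CPM (exact Poisson 95% interval 69.1 to 78.2, counting error only), stood above all PT libraries, and both 2 m libraries (16.5 and 17.7 CPM) lay within the range of 7 d.

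Cacna1b was at 56.1 and 65.4 CPM at 7 d, 64.6 and 60.2 at 7 d with LEV, 96.7 and 71.4 at 1 m, and 94.5 and 84.4 at 1 m with LEV. The groups did not overlap, although the non-infarcted library at 1 m came close to the highest of 7 d. The difference was 0.48 (SE 0.12, limma adjusted p = 0.0077), higher in 4 of 4 pairs. Naive was higher still, at 109 CPM, and the 2 m libraries, at 46.4 and 56.0, were the lowest of all. The 2 m non-infarcted library (56.00 CPM) was nearly tied with the 7 d infarcted library (56.05 CPM).

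Of the TARPs, regulators of AMPA receptor trafficking and gating, Cacng2, Cacng4 and Cacng7 rose, and others did not. Cacng2 was at 42.3, 39.1, 38.4 and 46.0 CPM in the 7 d libraries and at 57.0, 51.8, 54.0 and 54.2 in those of 1 m, a difference of 0.38 (SE 0.12, limma adjusted p = 0.031). Cacng4 stood at 11.2, 9.16, 10.7 and 11.3 CPM at 7 d and at 14.0, 13.3, 16.1 and 15.3 at 1 m, a difference of 0.44 (SE 0.14, limma adjusted p = 0.034). Cacng7 was at 43.0, 39.6, 43.3 and 43.5 CPM at 7 d and reached 51.0, 47.8, 65.8 and 61.5 at 1 m, a difference of 0.40 (SE 0.12, limma adjusted p = 0.030). No group overlapped for any of these 3 genes, and each was higher in 4 of 4 pairs. The other tested gamma subunits, TARP gamma-8 (Cacng8) among them, were below 0 and did not pass the test. Cacng8 had -0.16, Cacng3 -0.15 and Cacng5 -0.04, so the TARPs did not rise as a group.

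Scn1a and Scn2a were the members that fell. Scn1a was at 83.0 and 90.3 CPM at 7 d, 94.2 and 105 at 7 d with LEV, 74.4 and 74.7 at 1 m, and 51.7 and 58.2 at 1 m with LEV. The difference was -0.53 (SE 0.14, limma adjusted p = 0.0099), below 0 in all pairs but with -0.16 and -0.27 without LEV and -0.85 and -0.84 with it. Scn2a was at 86.2, 85.9, 84.1 and 98.5 CPM in the 7 d libraries and at 67.5, 71.4, 60.9 and 68.1 in those of 1 m. Its difference was -0.40 (SE 0.12, limma adjusted p = 0.025), and the groups of both genes did not overlap. The related Scn3a (-0.14), Scn9a (-0.17) and Scn8a (0.13) did not pass.

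**Figure D3:**
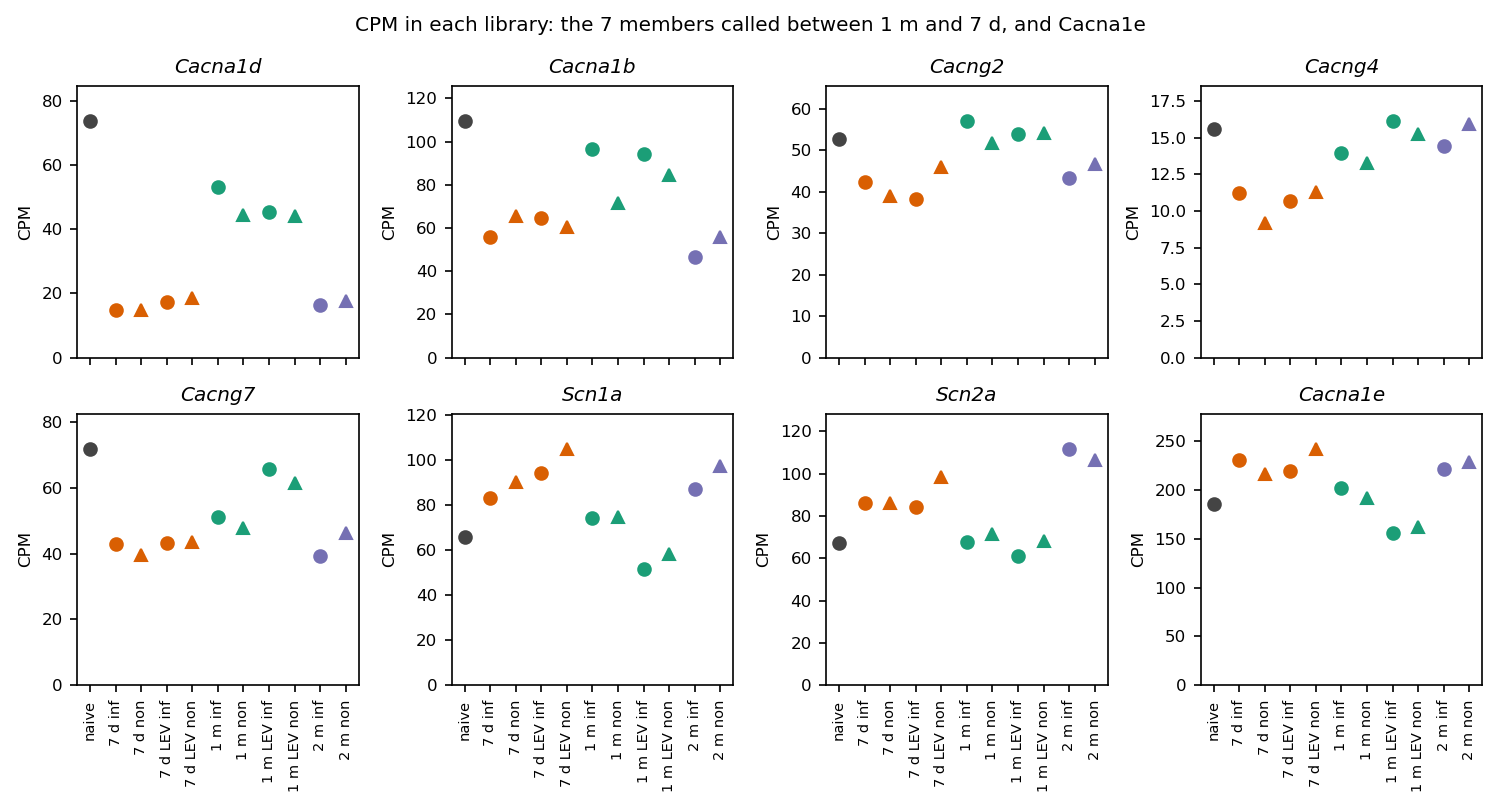
CPM in each of the 11 libraries for the 7 genes called between 1 m and 7 d by limma and for Cacna1e, each with its own axis from 0; circles are the infarcted side or naive, triangles the non-infarcted side, and colours the times. Cacna1d at 1 m lies between 44.2 and 53.3 CPM, above all 7 d and 2 m libraries and below naive.

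By class, 2 calcium channel pores and 3 gamma subunits rose, 2 sodium channel pores fell, and none of the sodium beta, alpha2delta or calcium beta subunits was called. Pore-forming members were called in 4 of 15 cases, 2 each way, with a median of 0.01, and auxiliary members in 3 of 18, all higher, with a median of -0.05. Over all genes 15.8% were called, 5.71% higher and 10.1% lower. Each class holds few members, so these counts are no result about a class. Without Cacna1d 3 of 14 pore-forming members were called, 1 higher and 2 lower, with a median of -0.06. The R-type pore Cacna1e had a difference of -0.36 (SE 0.13, limma adjusted p = 0.058), with 178 ± 22.5 CPM at 1 m and 227 ± 11.7 at 7 d (SD, n = 4 each). Cacna2d4, at a mean of 1.25 CPM, had -0.41 with an adjusted p of 0.17 in limma and was below 0 in all pairs. Cacnb4 had -0.23 with an adjusted p of 0.21 in limma. All 8 tested calcium channel pores had the same sign in every pair, as had 46.6% of all genes. Of these pores 6 were above 0 and 2, Cacna1e and Cacna1c, below. Without Cacna1d 7 of 7 had the same sign in every pair, with 5 above 0. Groups did not overlap for 9 members that were higher and 7 that were lower at 1 m, where 10.8% and 19.1% of all genes did so. Without Cacna1d, picked for this difference, 8 of 32 were higher and 7 lower. At an unadjusted p under 0.05 in limma there were 11 members, 10 of 32 without Cacna1d, and 29.6% of all genes.

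The calls depended on the scaling and on single libraries. The counts here leave out Cacna1d, whose difference is a description. With TMM scaling limma called 0 of the other 32 members and 2.08% of all genes, with 12 members at an unadjusted p under 0.05. EdgeR and DESeq2 on the recovered reads each called 1, Cacna1b, higher, with 4.09% and 4.99% of all genes. These scalings also turned the split over all genes, from 917 higher and 1620 lower to 185 and 149 (TMM), 384 and 273 (edgeR) and 516 and 285 (DESeq2). Without the PT 1 m infarcted library limma called 0, with 9 at an unadjusted p under 0.05. Without the PT 7 d LEV non-infarcted library there were 2, Cacna1b and Cacng2, and without the PT 7 d non-infarcted library 3, Cacna1b, Scn1a and Scn2a. Leaving out both 1 m libraries low in choroid plexus genes left Scn1a and Scn2a. With no filter on low genes limma called 0 members and 24 genes in all, with 8 members at an unadjusted p under 0.05. The 6 members called by limma kept their sign under all 17 alternative fits.

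Other measures moved with time in the same libraries. All 6 choroid plexus markers were lower at 1 m (limma adjusted p under the threshold), none of them at 0 in any library. The 2 CA1 markers Mpped1 and Pou3f1 and the interneuron markers Gad1, Gad2 and Vip were higher, of 4 and 7 tested. Summed CA1 markers were 258 to 287 CPM at 7 d and 321 to 382 at 1 m, and summed interneuron markers 771 to 937 and 1025 to 1197. Summed neuronal markers went the other way, 4735 to 5120 CPM at 7 d and 4081 to 4447 at 1 m, with Map2 called lower. Astrocyte, microglia and oligodendrocyte precursor lists each had 2 of 5 markers called lower. G and C content also moved with the difference: with all genes in 5 equal bins of G and C, the median log2 difference was -0.10 in the lowest bin and 0.01 in the highest. Of the 8 members in the lowest bin, Scn1a and Scn2a among them, 7 were below 0, where 35.3% of all genes of that bin were above 0. The highest bin held 11 members, of both signs, and 51.3% of all its genes were above 0. The Spearman rank correlation of the difference with G and C content was 0.13 over all genes and 0.34 over members. The part of these measures in the channel differences was not tested.

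The naive library and the later time point place the difference in a wider pattern, looked at after the values were seen. Naive and the 4 libraries of 1 m lay wholly above those of 7 d and 2 m for 8 members, among them Cacna1d, Cacna1b, Cacna1g, Cacng2, Cacng7, Scn3b and Scn8a, and for 6.81% of all genes. This count holds Cacna1d, which was singled out for its difference between 7 d and 1 m. Naive and 1 m lay wholly below for 6 members, Scn1a, Scn2a, Cacna1e, Cacna1c, Cacnb3 and Cacnb4, and for 11.9% of all genes. For these members the 7 d libraries thus lay on the same side as those of 2 m. The labels give no dates or runs, and a shared handling of libraries cannot be told apart from time here.

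Proteins that anchor, regulate or dock with the channels were read from lists of 13 sodium channel and 21 calcium channel partners. Of the sodium channel partners 2 fell and 0 rose between 7 d and 1 m, beside the 10.1% of all genes called lower and 5.71% called higher. Ank3 (ankyrin-G, which holds sodium channels at the axon initial segment) had -0.56 (SE 0.12, limma adjusted p = 0.0029), at 119 to 138 CPM at 7 d and 71.1 to 99.5 at 1 m. Calm2, one of the calmodulin genes, had -0.52 (SE 0.16, limma adjusted p = 0.032). Of the calcium channel partners 2 rose, Cabp7 (a calcium-binding protein) by 0.48 and Rims3 (of the RIM family at release sites) by 0.42. Another 2 fell, the syntaxin gene Stx1a, at -0.67, and Rims2, at -0.40. The 4 of 21 lie near the 15.8% of all genes called, as do the 2 of 13, so neither count is a result about the partners as a group. These calls also depended on the scaling. With TMM scaling limma called 0 partners of either list, with 4 sodium and 7 calcium channel partners at an unadjusted p under 0.05. EdgeR called 1, Cabp7, and DESeq2 called 4, Ank3, Calm2, Cabp7 and Stx1a. For LEV and for side, 0 partners passed the limma test.

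The next question is whether LEV went with other channel levels. Limma called 0 of 33 members, with 0.0187% of all genes called, and 1 member and 6.1% of all genes had an unadjusted p under 0.05. EdgeR and DESeq2 also called 0 members, with 1 and 0 at an unadjusted p under 0.05. The largest member was Cacna1a, the P/Q-type pore, at 89.3 and 86.1 CPM at 7 d, 99.6 and 104.5 at 7 d with LEV, 102 and 103 at 1 m, and 129 and 122 at 1 m with LEV. LEV libraries were above their counterparts in 4 of 4 pairs, but the range with LEV overlapped the range without it. The difference was 0.25 (SE 0.12, limma adjusted p = 0.81). The same sign in all 4 pairs was seen for 8 of 33 members, near the 21.0% of all genes that had it. Above 0 in all pairs with Cacna1a, without passing, were Scn4b (0.22), Cacng7 (0.21), Cacng8 (0.17), Cacna1i (0.15), Cacna2d3 (0.12) and Cacnb3 (0.07), and below 0 in all pairs was Cacng3 (-0.20). For Cacng7 the pairs were 0.01 and 0.13 at 7 d and 0.36 at 1 m on both sides.

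Small values above 0 were common among the members with LEV, in 23 of 33, with a median of 0.06 against -0.02 over all genes, of which 45.6% were above 0. Auxiliary subunits were above 0 in 14 of 18 cases and pore-forming subunits in 9 of 15. Cacna1d had 0.06 (SE 0.13), with 0.20 and 0.29 at 7 d and -0.23 and -0.01 at 1 m. Its difference between 1 m and 7 d was 1.64 without LEV and 1.27 with it, and this difference was not tested. All 5 astrocyte markers (median -0.24, sums of 647 to 941 CPM with LEV and 724 to 1270 without) and all 5 microglia markers (median -0.22, sums of 122 to 176 and 141 to 237 CPM) were below 0 with LEV. All 6 choroid plexus markers were above 0 (median 0.27), 3 of them at an unadjusted p under 0.05 in limma. Dentate granule cell markers were below 0 in 3 of 4 cases (median -0.25). Of the marker genes 1 passed the limma test, the haemoglobin gene Hbb-bs, lower with LEV at -1.02 (SE 0.16, limma adjusted p = 0.035). The part of these measures in the channel values was not tested.

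The side of the infarct was compared over 5 pairs of libraries. Limma called 0 of 33 members, and 0.0% of all genes were called, with 3 members and 7.6% of all genes at an unadjusted p under 0.05. EdgeR and DESeq2 called 0 members as well, with 4 and 3 at an unadjusted p under 0.05. The same sign in all 5 pairs was seen for 4 members, against 7.97% of all genes. Scn1a was lower on the infarcted side by pairs of -0.12, -0.15, -0.01, -0.17 and -0.16 (7 d, 7 d LEV, 1 m, 1 m LEV and 2 m), a mean of -0.12 (SE 0.05, limma adjusted p = 0.58). Scn3b, the sodium channel beta subunit, had a mean of -0.10 and Cacnb2 of -0.09, both below 0 in all pairs, while Cacna2d2 had 0.13. Marker lists also leaned one way by side, though limma called 0 of their genes, as of all genes. All 5 microglia markers were above 0 (median 0.31), 4 of them in every pair, with summed levels of 140 to 237 CPM on the infarcted and 122 to 167 on the other side. All 8 markers of neocortex, thalamus and striatum were above 0 (median 0.18), 5 at an unadjusted p under 0.05, with sums of 229 to 269 and 206 to 252 CPM. All 5 astrocyte markers were above 0 (median 0.10), with sums of 652 to 1270 and 647 to 945 CPM. Over all genes 59.4% were above 0. No marker of these 3 lists was at 0 in any library, and their part in the side differences was not tested. The median absolute difference over members was 0.04 for side and 0.21 for time, against 0.06 and 0.18 over all genes. Without Cacna1d the value of the members for time was 0.20. For Cacna1d the side difference was 0.03 (SE 0.07).

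**Figure D4:**
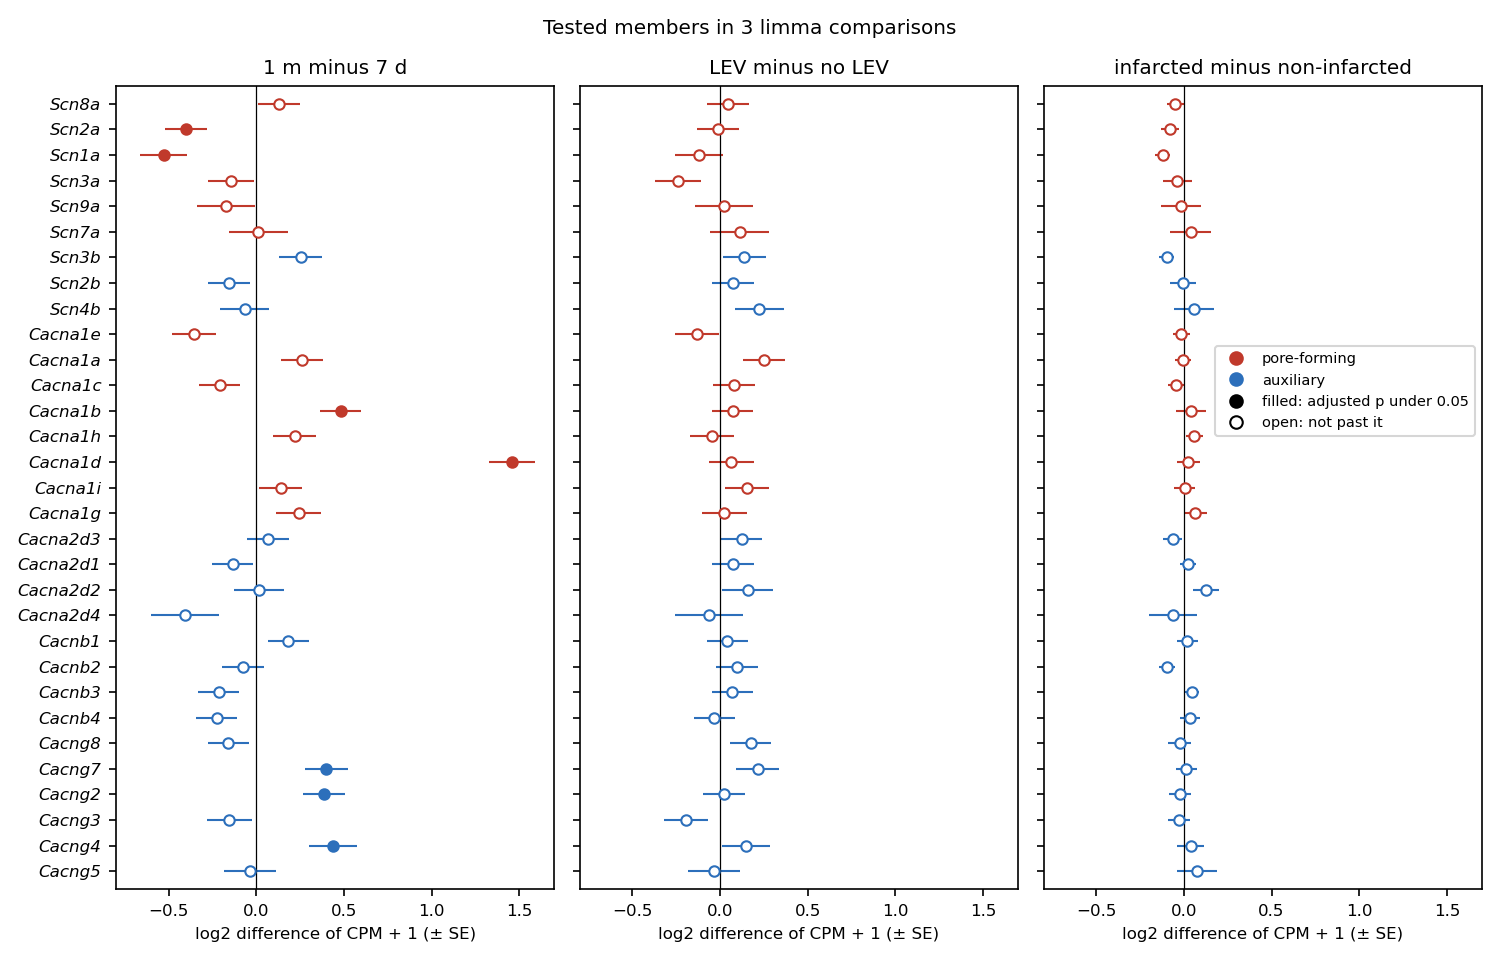
Log2 differences of CPM + 1 with their SE for 31 tested genes in the 3 limma comparisons, ordered by class; red is pore-forming, blue auxiliary, and filled points have an adjusted p under 0.05. Filled points occur in the comparison of 1 m with 7 d alone, 5 to the right of 0 and 2 to the left, and Cacna1d stands apart at 1.46.

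Whether the side difference itself changed with time or with LEV was tested with interaction terms. For time 0 members were called, with 0.0% of all genes and 2 members, Cacna1b and Cacng8, at an unadjusted p under 0.05. For LEV 0 members were called, with 0.168% of all genes and 1 member, Cacng5, at an unadjusted p under 0.05. EdgeR and DESeq2 were not run on these terms.

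Each PT condition was set against naive without a test, because naive is 1 library. A member was counted when both sides differed from naive by at least 1 on the log2 scale in the same direction. At 7 d only Cacna1d was counted, lower by 2.22 at least on both sides, where 0.766% of all genes were lower and 0.237% higher. At 7 d with LEV Cacna1d was again the member counted, at -1.94 or below, with 0.71% of all genes lower and 0.212% higher. At 2 m it had -2.00 or below, with 1.63% of all genes lower and 0.504% higher. At 1 m and at 1 m with LEV 0 members were counted (0.255% and 0.199% of all genes lower, 0.00623% and 0.237% higher), and Cacna1d was at -0.46 and -0.72 without LEV and at -0.69 and -0.72 with it.

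With a smaller size of 0.5 more members appeared beside Cacna1d. Cacna1b and Cacng7 were lower than naive by that size at 7 d (4.22% of all genes), at 7 d with LEV (3.59%) and at 2 m (7.81%). At 2 m Cacnb1 and Cacng8 were also lower, and Scn2a and Cacng3 higher (8.74% of all genes). At 7 d with LEV Scn1a and Cacna2d4 were higher (3.07% of all genes), the latter at 1.25 CPM on average. At 1 m with LEV Cacna1d alone was counted (3.5% of all genes lower). Naive was above all 10 PT libraries for 7 members, Cacna1b, Cacna1d, Cacna1g, Cacna1h, Cacnb1, Cacng7 and Scn8a, and for 8.69% of all genes. It was below all of them for 3, Cacnb3, Cacnb4 and Scn4b, and for 8.3% of all genes.

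**Figure D5:**
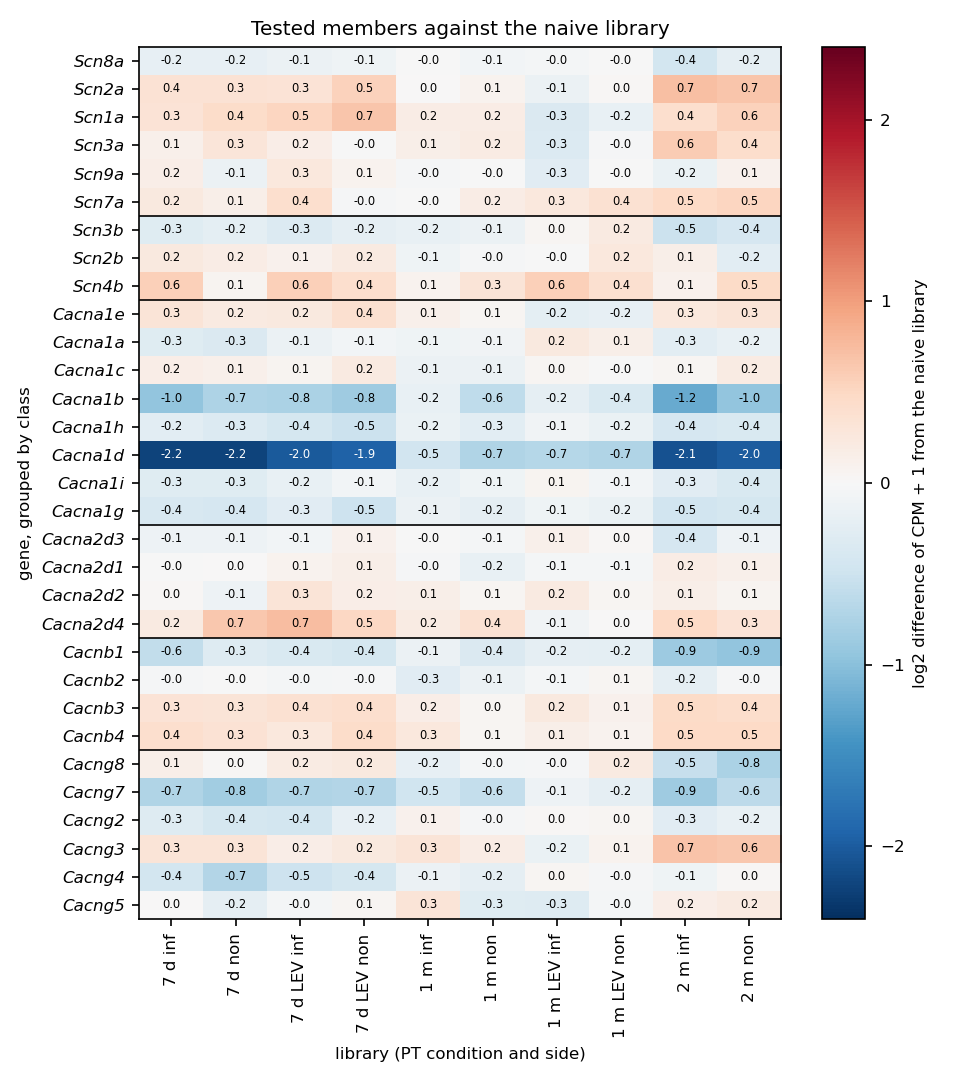
Log2 difference of CPM + 1 of each PT library from the naive library for 31 tested genes, in rows by class and columns by library; blue is lower and red higher than naive, with the value in each cell. The row of Cacna1d runs from -2.2 at 7 d to -0.5 at 1 m, and its 2 m values are near those of 7 d.

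The 2 m libraries, from mice withdrawn from LEV, were set against the other libraries in the same way. Against 1 m with LEV, 1 member was counted at a size of 1, Cacna1d, lower by 1.40 and 1.27, with 1.77% of all genes lower and 1.2% higher. At a size of 0.5 there were 5 lower members (Cacna1b, Cacna1d, Cacnb1, Cacng8 and Scn3b, with 8.43% of all genes) and 3 higher (Scn1a, Scn2a and Cacng3, with 13.0%). Against 7 d with LEV 0 members were counted, with 0.442% of all genes lower and 0.00623% higher, and at a size of 0.5 there were 2, Cacnb1 and Cacng8, both lower (3.38%). Both 2 m libraries lay above all the other 9 for 6 members, Scn2a, Scn3a, Scn7a, Cacnb3, Cacnb4 and Cacng3, and for 18.2% of all genes. They lay below all the other 9 for 5 members, Scn3b, Scn8a, Cacna1b, Cacnb1 and Cacng8, and for 11.9% of all genes. For Cacna1b this rests on a near tie, 56.00 CPM at 2 m on the non-infarcted side and 56.05 at 7 d on the infarcted side. Cacng8 was at 70.5 and 60.7 CPM at 2 m and at 90.7 to 122.7 in the other libraries. Cacnb1 was at 81.0 and 76.6 CPM at 2 m and at 98.2 to 148.3 elsewhere. Time, withdrawal and the 1 pair of libraries at 2 m cannot be told apart.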

How the data were processed

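Per the labels' protocols, CAGE libraries were cap-trapped from total RNA of the whole hippocampus with random primers. The authors deposited 1 table of CPM per gene. GRCm38 is the build in the submitters' processing notes, which list DESeq2 1.20.0, HISAT2 2.0.5 and BWA 0.7.17 with no role. The annotation and the counting rule are not stated there. All of the deposited CPM values (100%) were whole reads within 0.001 of a read, so read counts were recovered. A count of 0 allows up to 3 reads, and such floors and the exact Poisson intervals (95%) cover counting error only.

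Identifiers were matched to GENCODE M21 (GRCm38). Strand and gene matched for all 35 members, and the version for 28. Of the members, 11 overlap a gene on the other strand, and rows of the table carry a strand. Another gene on the same strand, which strand does not resolve, overlaps 5 (Cacnb2, Cacng7, Cacng8, Cacna2d1 and Cacna2d3), so their values are less certain. The 16057 genes whose mean reached 1 CPM were fitted with limma 3.58.1 (eBayes with trend, R 4.3.3) on log2(CPM + 1), two-sided, at a Benjamini-Hochberg adjusted p under 0.05. Side was fitted with a block for each PT condition (10 libraries). Time and LEV were fitted on 4 condition means (1 residual and 21.6 prior degrees of freedom). Interactions with side were fitted on the 8 libraries of 7 d and 1 m. EdgeR 4.0.16 and DESeq2 1.42.0 on recovered reads, TMM scaling, pseudocounts of 0.5 and 5 CPM, no filter, no trend and left-out libraries were alternatives. The limma fits were also run on simulated counts, drawn independently for each library with no spread between conditions beyond the planted changes. That run cannot show how the fits behave where conditions or mice vary.

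Named genes were Cacna1d, members past the threshold, up to 4 members per direction and tested comparison with the smallest p among those of mean at least 5 CPM with 1 sign in every pair, up to 3 per direction in untested comparisons, the highest 2 of each class, members below 1 CPM, and up to 4 genes of each partner or marker list. Other members were named by class, after their values were seen. Members and lists were chosen with earlier results of these data known. The scan of start sites, the G and C check and the smaller choroid plexus setting were chosen after the data were seen. Values of 2 of the members are not reported singly here, though they stay in the counts and sums.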

Additional observations from a re-analysis of the deposited data

Results flagged for a closer look

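LEV differences pointed one way on both sides at 7 d and the other way on both sides at 1 m for 5 of 33 members (15.2%), where 16.4% of all genes did so. The difference between the times was not tested, since each time has 1 pair of libraries per side. For Scn1a the LEV difference was 0.20 at 7 d and -0.44 at 1 m (log2, mean of both sides), a gap of -0.63. Cacna1d had 0.25 and -0.12, a gap of -0.37. Cacna1h had -0.19 and 0.09, a gap of 0.28, and Cacnb2 -0.02 and 0.21, a gap of 0.23. For Cacna1d and Cacnb2 the opposite signs rest on near ties. Cacna1d had -0.006 at 1 m on the non-infarcted side, and Cacnb2 had -0.027 and -0.007 at 7 d. In 0 members did both sides pass 0.5 at both times.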

How the results depend on the processing

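Members named in the comparison of 1 m with 7 d had 171 alternative values. Of these, 120 kept their direction and, where tested, side of the threshold, 47 lost a call, 4 gained one and 0 reversed (102, 46, 4 and 0 of 152 without Cacna1d). For each member they include untested values, with LEV only and without LEV only. Such values have no threshold and only a change of sign could count against them, so the share kept is not a share of tests. The count of members called there, 7, became 1 with TMM scaling, 0 with no filter, 2 without trend, 16 with 8 libraries as independent samples, 2 with edgeR, 2 with DESeq2 and 3 without both 1 m libraries low in choroid plexus genes, and ran from 1 to 7 with 1 library left out. Over all genes, 2537 became 334 (TMM), 24 (no filter), 4991 (8 libraries), 657 (edgeR) and 801 (DESeq2), and 1061 to 2392 with 1 library left out. For LEV, 112 of 114 values for named members kept their direction, and the 3 genes called over the table became 0 (TMM, pseudocount 5, no filter, no trend, edgeR), 12 (pseudocount 0.5), 1 (8 libraries, DESeq2, without both low choroid plexus libraries) and 0 to 62 with 1 library left out. The LEV difference of Cacna1d, 0.06, ran from -3.9e-05 (without the PT 1 m non-infarcted library) to 0.13 with 1 library left out and was -0.12 at 1 m only. For side, 59 of 60 values kept their direction, the difference of Cacna1d, 0.03, ran from -0.034 (without PT 1 m) to 0.054 with 1 condition left out, and the 0 genes called became 13 with DESeq2 and 0 to 50 with 1 condition left out. At a size of 0.5 instead of 1, members counted against naive were 3 (7 d), 5 (7 d LEV), 1 (1 m LEV) and 7 (2 m), and those of 2 m were 8 against 1 m LEV and 2 against 7 d LEV. The pore-forming share of 39.2% became 13.8% per kb. The cause of these changes was not tested. With no filter 22268 genes were tested in place of 16057, and the fits with libraries left out had fewer libraries. Side was compared within pairs of libraries of 1 condition. By replicate number, no paired analysis was possible because the labels give none and each condition and side has 1 library. Depth limits Cacna1s, Cacng6 and Cacna2d4, which rest on 0 to 38 reads a library.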
